A study of Rattus norvegicus with 18 samples.

Results

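The genes described here are 9 genes of young neurons and forebrain interneurons, measured in rat oligodendrocyte progenitor cells (OPCs), the dividing glial cells that form myelinating oligodendrocytes. They were taken by symbol, and all 9 (Dlx1, Dlx2, Dlx5, Sox11, Dcx, Stmn2, Tubb3, Gad1 and Gad2) were found among the 17337 genes of the files and passed the filter on low values. They were chosen by their levels in earlier results of the same libraries, where such genes stood higher in neonate than in aged sorted cells, so their age and culture differences are given as descriptions without a test. Total RNA was sequenced from OPCs isolated with magnetic beads in 6 groups of 3 libraries: aged OPCs grown on soft or on stiff hydrogels, neonate OPCs grown on soft or on stiff hydrogels, and primary sorted OPCs of aged and of neonate animals. All gels were coated with laminin, and the growth text, which names FGF and PDGF, is repeated for all samples. For the primary sorted cells age is read from the title letter alone. Strain, exact age, the antibody on the beads and the stiffness in units are not given in the sources used here. Neither are the animals behind each library. A p-value here therefore speaks of the spread between libraries of a group, pooled over the 6 groups, and part or all of that spread may be technical.

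Dlx1, Dlx2 and Dlx5 are homeodomain transcription factors of the ventral forebrain, where in the mouse Dlx1 and Dlx2 promote the interneuron fate and the migration of GABAergic neuroblasts and restrain the formation of OPCs. Sox11 is a transcription factor of newly born neurons. Dcx (doublecortin), Stmn2 (stathmin 2) and Tubb3 (the neuronal beta tubulin) act on or make up the microtubules of migrating and extending young neurons. Gad1 and Gad2 are the glutamate decarboxylases that make GABA, the transmitter of interneurons. After birth, such neuroblasts are born beside the lateral ventricles and move to the olfactory bulb, in the same brain that holds OPCs.

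The 9 genes lie at 9 separate loci of the rn6 build, each with 1 annotated transcript and with no other annotated gene of the files over it. Dlx1 (chromosome 3, 58164931 to 58169521, plus strand) and Dlx2 (chromosome 3, 58180088 to 58181971, minus strand) are convergent neighbours. Gad1 is on the same chromosome (56861440 to 56902139), Dlx5 on chromosome 4 (32387741 to 32392007), Dcx on chromosome X (115098675 to 115175299), Stmn2 on chromosome 2 (95424251 to 95471900), Tubb3 on chromosome 19 (56220759 to 56229813), Gad2 on chromosome 17 (89171576 to 89234768) and Sox11, a gene of 1 exon, on chromosome 6 (46629971 to 46631988). In the later GRCr8 annotation of RefSeq an RNA gene, LOC108350393, overlaps Dlx1, and counting in the files used no strand option, so reads of the 2 cannot be told apart.

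RefSeq promoter windows of the GRCr8 build, from 250 bases before to 50 bases after the start of the gene, were matched by symbol for 6 of the 9 genes, all but Dlx2, Dlx5 and Stmn2. The windows of the 4 genes among these whose aged primary libraries all lay below the neonate ones are shown to compare their base composition and short motifs. Capitals mark 4 motifs, each searched on both strands. The first is TAATTA, a core bound by homeodomain factors. The second is CAGCTG, an E-box, the kind of site bound by basic helix-loop-helix factors. The third is TATAAA, the TATA box, and the last is GGGCGG, the GC box. The motifs do not overlap each other in these windows.
Dlx1, plus strand, chr3:76763614-76763913: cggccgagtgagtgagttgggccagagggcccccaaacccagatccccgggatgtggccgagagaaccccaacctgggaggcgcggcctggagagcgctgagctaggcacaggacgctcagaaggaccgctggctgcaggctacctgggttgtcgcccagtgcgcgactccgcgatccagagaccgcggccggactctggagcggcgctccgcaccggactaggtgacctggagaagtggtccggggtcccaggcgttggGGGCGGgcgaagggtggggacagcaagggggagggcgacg
Sox11, minus strand, chr6:49738745-49739044: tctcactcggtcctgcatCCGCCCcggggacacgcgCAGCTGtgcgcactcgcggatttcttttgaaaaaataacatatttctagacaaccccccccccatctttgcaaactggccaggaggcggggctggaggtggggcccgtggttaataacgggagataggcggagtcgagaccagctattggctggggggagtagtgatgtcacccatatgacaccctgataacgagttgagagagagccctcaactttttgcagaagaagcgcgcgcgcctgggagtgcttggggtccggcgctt
Dcx, minus strand, chrX:112304112-112304411: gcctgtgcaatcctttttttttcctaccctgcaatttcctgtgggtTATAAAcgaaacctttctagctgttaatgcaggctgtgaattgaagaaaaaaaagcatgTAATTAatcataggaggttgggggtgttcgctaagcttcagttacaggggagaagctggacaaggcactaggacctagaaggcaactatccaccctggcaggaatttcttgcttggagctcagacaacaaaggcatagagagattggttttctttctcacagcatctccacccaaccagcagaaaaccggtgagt
Tubb3, plus strand, chr19:68365437-68365736: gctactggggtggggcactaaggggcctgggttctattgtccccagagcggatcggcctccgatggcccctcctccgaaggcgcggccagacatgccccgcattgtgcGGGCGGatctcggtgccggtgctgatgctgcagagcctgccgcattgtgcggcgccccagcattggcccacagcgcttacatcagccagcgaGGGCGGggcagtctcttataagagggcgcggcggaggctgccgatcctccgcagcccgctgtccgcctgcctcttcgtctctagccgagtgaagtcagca

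No motif was common to all 4 windows. The Dcx window held 1 homeodomain core and 1 TATA box and no GC box, while Dlx1 held 1 GC box, Tubb3 2 GC boxes, and Sox11 1 GC box and 1 E-box. Of 33469 RefSeq rat promoters of this length, 5.36% held the homeodomain core, 15.1% the E-box, 14.2% the TATA box and 33.1% the GC box. Gad1 held 1 TATA box and 1 GC box, and Gad2 held none of the 4. A match is a description of letters and not a site.

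Depth limited every value. Levels are TPM, the share of all transcripts after correction for length, divided by a scaling factor for each library and called scaled TPM. The libraries held 12.9 to 52.6 megabases of aligned sequence. With 300 bases counted as 1 read pair, 22200 to 105647 pairs per library lay outside ribosomal RNA. A single pair gave a 2 kb transcript a level of 2.23 to 10.5 scaled TPM, depending on the library. Some libraries listed 0 for housekeeping genes as well (7 of 15 such genes), and a 0 is therefore not read as silence. Replicate 1 of each aged group spread its reads over more genes than any other library and covered 54.7% to 77.2% of 1197 olfactory receptor genes, against 0.251% to 39.2% in the other libraries. These 3 are called the broad libraries. Values are given in the order of the replicates. A lower level in bulk RNA can come from fewer cells of a type or from less RNA per cell, and these cannot be told apart.

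The sorted cells carried OPC genes unequally. Pdgfra, the growth factor receptor of OPCs, was at 15.9, 0 and 0 scaled TPM in aged primary libraries, against 53.7, 42.6 and 74.7 in neonate primary libraries. Olig2, the lineage transcription factor, was at 0.992, 9.34 and 23.9 in aged primary libraries, against 48.8, 49.0 and 46.1 in neonate primary libraries. The 12 microglia markers summed to 2586 to 4401 scaled TPM in aged primary libraries, with none at 0 in all 3, against 129 to 261 in neonate primary libraries, where Tmem119 was at 0. Their part in the age differences below was not tested.

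In neonate primary cells Dlx1 was the most abundant of the 9 genes by scaled TPM. In primary sorted cells it was at 26.7, 11.6 and 21.6 scaled TPM in aged libraries, against 379, 432 and 398 in neonate libraries. The neonate values lay far above every other library of the study. The means were 20.0 ± 7.71 in aged and 403 ± 26.8 in neonate primary cells (SD, n = 3 each), a difference of -4.34 ± 0.75 (SE) on the log2(scaled TPM + 1) scale, where the median of all genes was 0.69. That median was 0 without the broad library. By mean level Dlx1 was number 43 of 17330 genes in neonate primary cells, ribosomal RNA left out, and number 2552 in aged primary cells. About 182, 110 and 126 read pairs stood behind the 3 neonate values, and 7.57, 3.24 and 5.85 behind the aged ones.

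Dlx2, which acts with Dlx1 and partly in its place, was at 10.8, 0 and 10.2 scaled TPM in aged primary libraries, against 246, 129 and 120 in neonate primary libraries. It was number 123 of 17330 genes in neonate primary cells, with 42.7, 11.9 and 13.8 read pairs, and its log2 difference was -4.95 ± 1.08 (SE). Sox11 was listed at 0 in all 3 aged primary libraries, against 53.7, 21.4 and 89.9 in the neonate ones. Dlx5 was at 17.2, 0 and 0 in aged primary libraries, against 7.28, 0 and 0 in neonate primary libraries. Each value of Dlx5 rested on under 3 read pairs, and the groups overlapped.

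**Figure D1:**
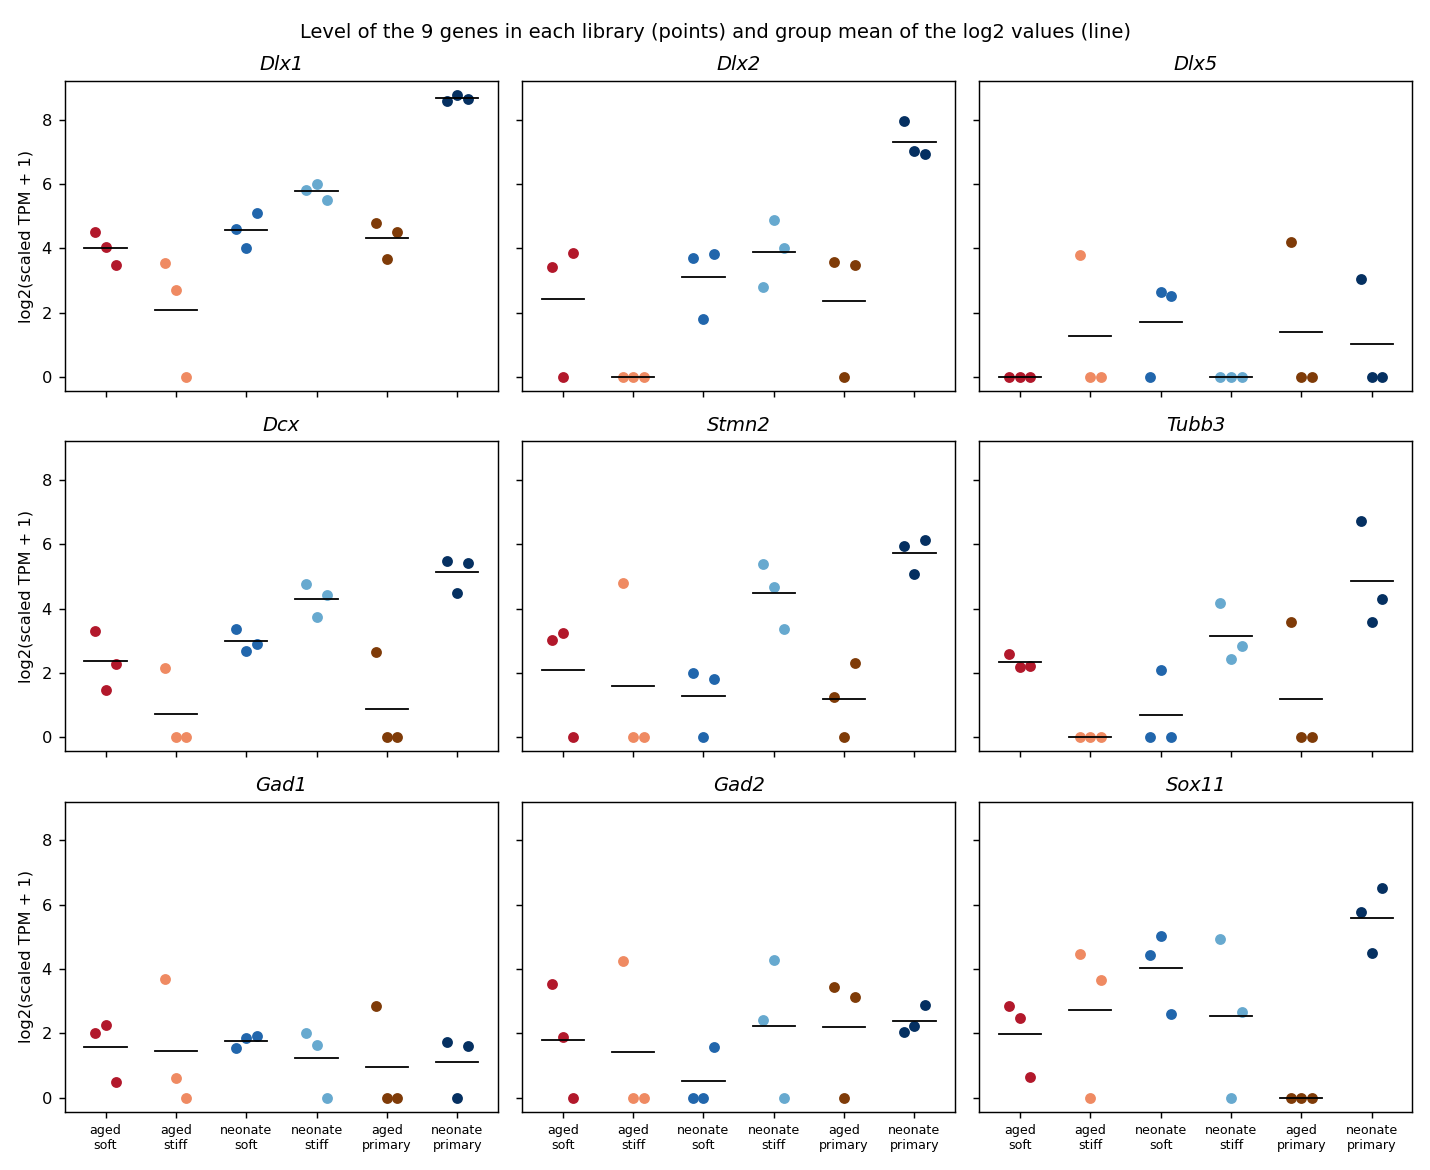
Level of each of the 9 genes in the 18 libraries, as log2(scaled TPM + 1); points are libraries and lines the mean of the log2 values of a group. Dlx1 stands at 379 to 432 scaled TPM in neonate primary cells, above all other groups, while Dlx5, Gad1 and Gad2 do not exceed 18.5 scaled TPM in any library.

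Dcx and Stmn2 were lower in every aged primary library than in any neonate one, and Tubb3 by a negligible margin. Dcx was at 5.31, 0 and 0 scaled TPM in aged primary libraries, against 43.6, 21.5 and 41.4 in neonate primary libraries, a log2 difference of -4.24 ± 0.99 (SE). The single aged value came from a broad library. Stmn2 was at 1.40, 0 and 3.94 in aged libraries, against 61.0, 32.4 and 69.2 in neonate libraries, a log2 difference of -4.53 ± 1.21 (SE). Tubb3 was at 11.004, 0 and 0 in aged libraries, against 103.6, 11.005 and 18.8 in neonate libraries. Its groups were separated only in the third decimal, and 1 neonate library held most of its reads, 31.8 read pairs against 1.79 and 3.82.

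The GABA enzymes did not share this pattern. Gad1 was at 6.17, 0 and 0 scaled TPM in aged primary libraries and at 2.31, 0 and 2.05 in neonate primary libraries. For Gad2 the aged primary values were 9.88, 0 and 7.72, and the neonate primary ones 3.08, 3.67 and 6.37. Over all 18 libraries neither gene, nor Dlx5, exceeded 2.52 read pairs in any library, and Dlx5 was listed at 0 in 13, Gad1 in 5 and Gad2 in 7 libraries. The interneuron genes with more than a few reads were Dlx1 and Dlx2 and not the GABA enzymes, so the set is better described as Dlx1, Dlx2 and 4 genes of young neurons (Dcx, Stmn2, Tubb3 and Sox11), with 3 genes near the limit of detection.

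In sum over the set, the 9 genes held 22.2, 3.24 and 9.06 read pairs in aged primary libraries, against 365.6, 151.5 and 223.6 in neonate primary libraries. Dlx1 alone made up 49.7% to 72.6% of the set's pairs in the neonate ones. For 6 of the 9 genes, Tubb3 by the third decimal, all aged primary libraries lay below all neonate ones, where 4.97% of all 15144 genes tested did so; since the genes were chosen for this difference, the count is descriptive. Without the broad library the same 6 genes stayed below, and the share of all genes was 10.7%.

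On the gels, aged cultures held less Dlx1 and Dlx2 on average than neonate cultures, while Dlx5 was at 0 in most libraries of both ages. Dlx1 was at 21.5, 15.5 and 10.2 scaled TPM in aged soft and 10.7, 5.46 and 0 in aged stiff cultures, against 23.1, 15.1 and 33.2 in neonate soft and 55.4, 62.5 and 44.1 in neonate stiff cultures. The ranges of aged and neonate cultures met on soft gels and stood apart on stiff gels. The difference of the 2 ages over both gels was -2.12 ± 0.53 (SE) for Dlx1, -2.28 ± 0.77 for Dlx2 and -2.11 ± 0.70 for Dcx on the log2 scale, where the median of all genes was 0.71 (0.17 without the broad libraries). For the other 6 genes it ran from -1.04 (Stmn2) to 0.22 (Gad2). No gene of the set had all aged gel libraries below all neonate ones, where 0.878% of all genes did. Without the broad libraries 1 did, Dcx, beside 1.66% of all genes. That held in scaled TPM only. Before scaling, aged soft replicate 3 was at a TPM of 5.53 and neonate soft replicate 3 at 4.28.

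Dcx was at 8.86, 1.79 and 3.90 scaled TPM in aged soft and 3.42, 0 and 0 in aged stiff cultures, against 9.27, 5.39 and 6.51 in neonate soft and 26.1, 12.3 and 20.3 in neonate stiff cultures. It was covered in all 6 neonate cultures. Dlx2 was listed at 0 in all 3 aged stiff libraries and was at 9.77, 0 and 13.5 in aged soft cultures, against 11.95, 2.45 and 13.1 in neonate soft and 5.94, 28.4 and 15.001 in neonate stiff cultures. Sox11 was at 6.14, 4.55 and 0.567 in aged soft and 21.2, 0 and 11.6 in aged stiff cultures, against 20.8, 31.4 and 5.02 in neonate soft and 29.4, 0 and 5.35 in neonate stiff cultures, and overlapped throughout.

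Neonate cells on gels held much less Dlx1 and Dlx2 than neonate cells taken straight from the sort. Each neonate gel library was at most at 62.5 scaled TPM of Dlx1, where the lowest primary library was at 379, and the log2 difference of culture to primary cells was -3.49 ± 0.65 (SE). For Dlx2 the highest gel library was at 28.4 and the lowest primary library at 120, a difference of -3.80 ± 0.94. The values of Tubb3 (-2.94 ± 1.02), Stmn2 (-2.84 ± 1.05), Sox11 (-2.31 ± 1.06) and Dcx (-1.48 ± 0.86) were also negative, while the median of all genes was 0. In these 4 genes the cultured and primary libraries overlapped in scaled TPM. On that scale Dlx1 and Dlx2 were the 2 genes of the set without overlap, where 2.4% of all genes had all neonate gel libraries below all neonate primary ones. In TPM before scaling the other 4 stood apart as well. Their highest gel and lowest primary values were 14.6 and 19.1 (Tubb3), 35.3 and 56.3 (Stmn2), 30.7 and 37.2 (Sox11), and 22.4 and 37.4 (Dcx). The share of all genes apart before scaling was not counted. The primary group is the same in both comparisons of neonate primary cells, so the age and culture differences are not independent.

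The order of the groups differed between genes. Dlx1 ran from neonate primary (403 ± 26.8) to neonate stiff (54.0 ± 9.30), neonate soft (23.8 ± 9.09), aged primary (20.0 ± 7.71) and aged soft (15.7 ± 5.66; SD, n = 3 each) down to aged stiff. In scaled TPM the libraries of neonate primary, neonate stiff and neonate soft cells did not overlap from one group to the next, and those of all later neighbours in this order did. In TPM before scaling the neonate gels overlapped, with soft replicate 1 at 28.9 and stiff replicate 2 at 28.4. Stmn2 had the same leading pair, 25.01 ± 15.9 in neonate stiff and 54.2 ± 19.3 in neonate primary cells (SD, n = 3 each). The ranges of this pair overlapped in scaled TPM and stood apart before scaling. Neonate soft cells were at 2.99, 0 and 2.54 scaled TPM of Stmn2.

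Gel stiffness did not enter the choice of the genes, so each was tested between soft and stiff gels with limma on all 15144 genes. None of the 9 was called at either age. In aged cells 12 genes of all were called, 0.0792%, all higher on soft gels. In neonate cells 0 were called by limma and 6 by voom. There 438 of the 15144 genes had an unadjusted limma p under 0.05, a smaller share than the 0.05 that arises with no difference in any gene. The largest difference in aged cells was that of Dlx2, 2.43 ± 1.08 (SE; limma, adjusted p = 0.405), followed by Tubb3, 2.33 ± 1.18 (limma, adjusted p = 0.472), and Dlx1, 1.93 ± 0.75 (limma, adjusted p = 0.341), where the median of all genes was 0.59. All 3 values were positive, and Tubb3 was at 4.999, 3.52 and 3.69 scaled TPM on soft gels, against 0 in all 3 stiff cultures. Those soft values rested on 0.657, 0.385 and 1.46 read pairs.

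In neonate cells the fitted values of these 3 genes were negative. Stmn2 was at 2.99, 0 and 2.54 scaled TPM on soft gels, from 0.83, 0 and 0.35 read pairs, against 41.2, 24.5 and 9.34 on stiff gels. Its log2 difference was -3.21 ± 1.21 (SE; limma, adjusted p = 1.0). Tubb3 was at 0, 3.30 and 0 on soft gels, against 17.03, 4.35 and 6.19 on stiff gels, a log2 difference of -2.44 ± 1.18 (SE; limma, adjusted p = 1.0). Dlx1 and Dcx differed by -1.20 ± 0.75 and -1.32 ± 0.99 (limma, adjusted p = 1.0 for both). Gad2 had the same signs, 0.39 ± 1.38 in aged and -1.71 ± 1.38 in neonate cells, whereas Dlx5 (-1.27 ± 1.24 and 1.72 ± 1.24) and Sox11 (-0.72 ± 1.22 and 1.49 ± 1.22) had the reverse signs in aged and neonate cells. In 4 of the 9 genes (Dlx1, Dcx, Stmn2 and Tubb3) all neonate soft libraries lay below all neonate stiff ones in scaled TPM, where 2.53% of all genes did. In TPM before scaling only Stmn2 stayed apart, at 3.73 or less on soft and 7.68 or more on stiff gels. Dlx1, Dcx and Tubb3 then overlapped. In aged cells 1 of the 9, Tubb3, had all soft libraries above all stiff ones, beside 6.63% of all genes, and without the broad libraries 3 did (Dlx1, Dcx and Tubb3), beside 22.7%. In TPM before scaling Dlx1 also stood apart over all aged gel libraries, at 14.5 or more on soft and 8.60 or less on stiff gels.

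The difference between the ages in the response to stiffness was also tested. The largest positive value was that of Tubb3, 4.78 ± 1.67 (SE; limma, adjusted p = 0.761), then Stmn2, 3.69 ± 1.71 (adjusted p = 0.936), Dlx2, 3.22 ± 1.53 (adjusted p = 0.941), Dlx1, 3.13 ± 1.06 (adjusted p = 0.761), Dcx, 2.97 ± 1.41 (adjusted p = 0.941), and Gad2, 2.10 ± 1.95 (adjusted p = 0.996). Of opposite sign were Dlx5, -2.99 ± 1.75 (adjusted p = 0.981), Sox11, -2.21 ± 1.73 (adjusted p = 0.987), and Gad1, -0.40 ± 1.70 (adjusted p = 1.0). None of the 9 passed, and the standard errors of the stiffness differences within an age were 0.75 to 1.38.

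**Figure D2:**
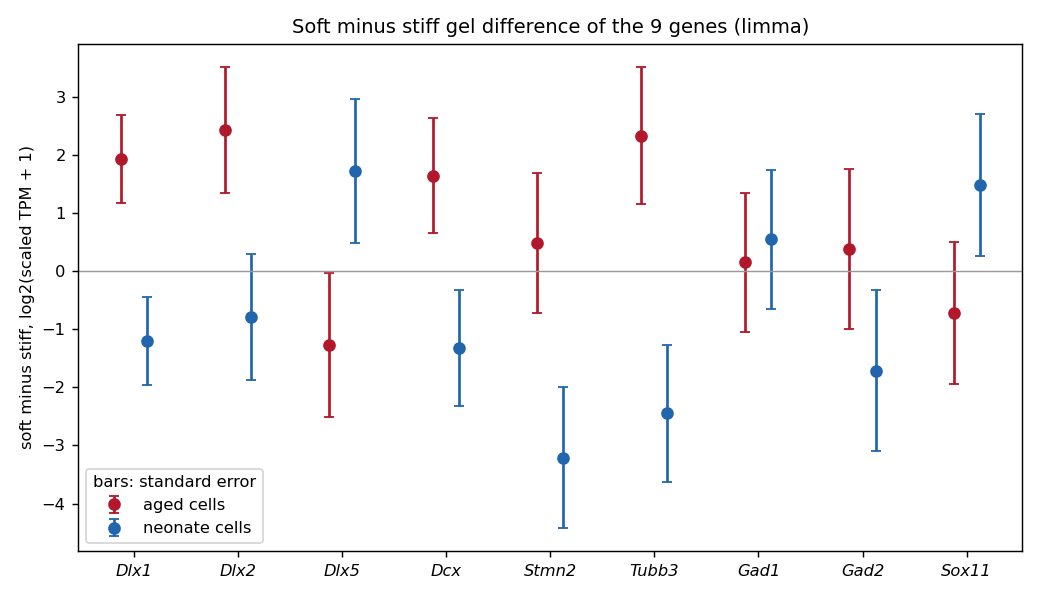
Difference between soft and stiff gels of the 9 genes in log2(scaled TPM + 1), as fitted by limma, with bars of 1 standard error; aged cells are drawn left of neonate cells. Dlx1, Dlx2, Dcx, Stmn2, Tubb3 and Gad2 have positive values in aged and negative values in neonate cells, Dlx5 and Sox11 the reverse, and no value passed the test.

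Where the reads lay within the genes differed between genes and groups. The third exon of Dlx1, 61.5% of the transcript, held 93.1%, 100% and 49.9% of its exonic bases in neonate soft and 61.1%, 76.9% and 75.5% in neonate stiff cultures, against 90.5%, 96.6% and 91.4% in neonate primary cells. Each stiff library was below each primary one, with 14.3, 11.2 and 10.9 Dlx1 read pairs behind the stiff shares, and the difference was not tested. In aged soft replicates 2 and 3 the third exon of Dlx1 held 0% of the bases, whereas all 3 Dlx1 exons were covered in every neonate primary library. Dlx2 had 75.1%, 68.6% and 86.9% of its bases on the first exon in neonate primary cells, where that exon makes up 40.9% of the transcript.

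Stmn2 showed the reverse of a length-driven spread. Its last exon makes up 72.6% of the transcript, yet held 0% of the Stmn2 bases in all 3 neonate stiff libraries, against 19.1%, 0% and 6.59% in neonate primary cells. The third exon, 9.36% of the length, held 53.3% in neonate stiff and 47.6% in neonate primary cells, with the 3 libraries of a group summed. In aged cultures the few Stmn2 reads lay on the last exon: 100% of the bases in aged soft replicates 1 and 2, and 83.9% in aged stiff replicate 1. The reads counted for Stmn2 in aged cultures and in neonate cells therefore came mostly from different exons, although under 4 read pairs stood behind each aged value. Dcx, with 87.5% of its length in the last exon, had 94.2%, 91.7% and 93.0% of its bases there in neonate primary cells.

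**Figure D3:**
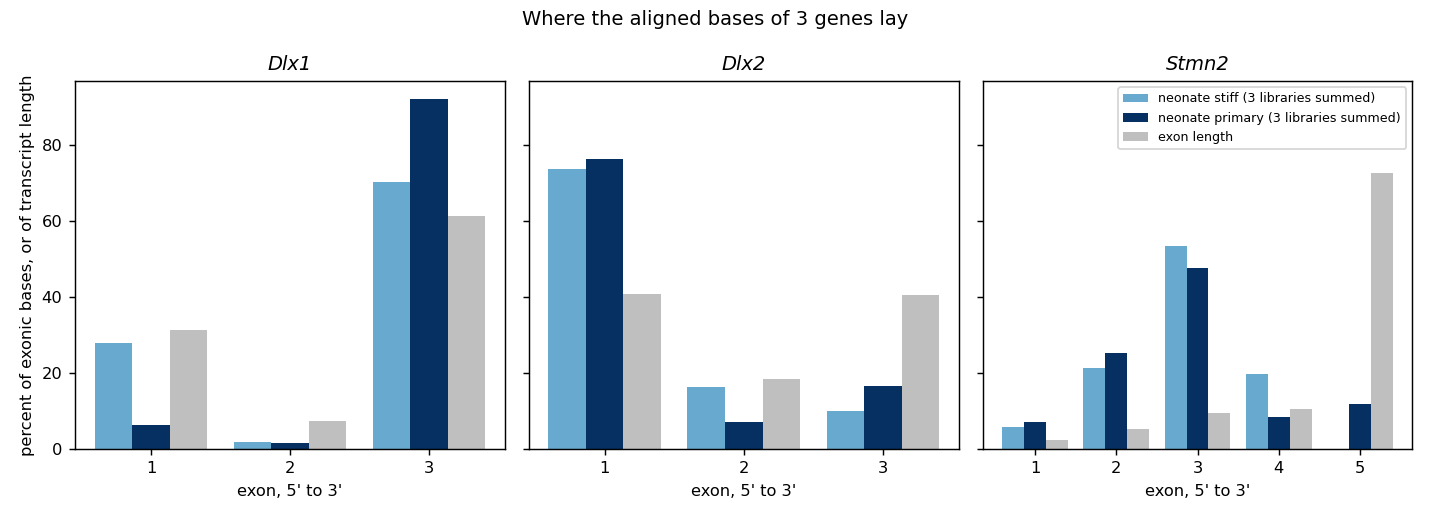
Share of the exonic bases of Dlx1, Dlx2 and Stmn2 on each exon, in percent, in neonate stiff and neonate primary cells (3 libraries of each group summed), beside the share of transcript length in grey. The last exon of Stmn2 holds 11.8% of the bases in neonate primary cells and 72.6% of the length, while the third exon of Dlx1 holds 92.4% of the bases and 61.5% of the length.

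Other genes of young neurons were set beside the 9 in 3 lists that hold none of them. The lists were chosen with earlier results of these data known. Their p-values for age, in primary cells and on gels, are therefore no independent evidence for the difference seen in the 9. Of 26 tested genes of the cytoskeleton and adhesion of young neurons, 9 were called lower and 0 higher in aged than in neonate primary cells (limma, adjusted p below the threshold of 0.05), where 0.66% of all genes were called lower and 1.94% higher. The median of the list was -2.04, beside 0.69 for all genes. Tubb2b, a beta tubulin of migrating neurons, was at 35.8, 6.23 and 20.7 scaled TPM in aged libraries, against 316.5, 223 and 309 in neonate libraries (limma, adjusted p = 1.1e-04). Marcksl1, an actin-binding protein of growth cones, was at 31.5, 24.5 and 41.2 in aged libraries, against 481.5, 243 and 274.5 in neonate ones (limma, adjusted p = 4.5e-04). Cd24, a surface glycoprotein of neuroblasts, was listed at 0 in all aged libraries and at 56.1, 27.9 and 69.5 in neonate libraries (limma, adjusted p = 0.00354). Dclk2, a kinase related to doublecortin, was at 20.9, 2.41 and 13.1 in aged libraries, against 85.1, 97.3 and 91.4 in neonate ones (limma, adjusted p = 0.00726).

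The other called genes of that list were Mllt11, Map1b, Dpysl3, Crmp1 and Igfbpl1. Several genes of the list are made by OPCs as well, and 4 of 12 OPC genes were called lower in the same comparison (Ncan, Olig1, Pdgfra and Cspg5), so the list does not tell neuroblasts from OPCs. St8sia4, which adds polysialic acid to NCAM, was the one gene of the list well above 0, with a difference of 4.77 ± 1.33 (SE; limma, adjusted p = 0.0507).

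Of 19 tested transcription factors of interneurons, 1 was called, Sp8, a factor of olfactory bulb interneurons. Sp8 was listed at 0 in all aged primary libraries and was at 17.5, 25.2 and 33.7 scaled TPM in neonate ones (limma, adjusted p = 0.015). Sp9, its relative, was also listed at 0 in all aged primary libraries while its neonate values were 10.8, 6.60 and 9.31; limma did not call it. Lhx6, a factor of cortical interneurons, was listed at 0 in all 9 neonate libraries. The median of this list was -0.91, and Lhx6, Lhx8, Isl1 and Foxp2 were at 0 in all neonate primary libraries. Sp9 and Lhx6 were singled out after their values were seen. Of 13 tested genes of GABA handling and interneuron peptides, 0 were called by limma in any of the 5 comparisons; the median in primary cells was 0.03, and Calb2, Pvalb, Sst, Npy, Vip and Cck were at 0 in all neonate primary libraries. Of 9 genes of the excitatory lineage and 16 of mature neurons, 0 were called by limma in primary cells. Their medians were -0.82 and -0.51, beside 0.69 for all genes, so a median below that of all genes was not particular to the interneuron factors.

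On gels, 9 of the 26 cytoskeleton and adhesion genes were called lower in aged cells and 0 higher, where 1.76% of all genes were called lower and 3.8% higher. The median of the list was -1.59, beside 0.71 for all genes. In the same comparison 5 of 12 OPC genes were called lower (Sox10, Ncan, Olig1, Olig2 and Pdgfra; median -2.03), as was Gfap, an astrocyte gene, and 5 of 12 microglia markers were called higher (Itgam, Tyrobp, Csf1r, Aif1 and C1qc; median 2.78). The microglia markers summed to 301 to 612 scaled TPM in aged soft and 134 to 394 in aged stiff, against 46.5 to 122 in neonate soft and 34.4 to 52.5 in neonate stiff libraries. Their part in the list's differences was not tested. Marcksl1 was at 65.2, 55.7 and 113 scaled TPM in aged soft and 18.5, 15.997 and 42.4 in aged stiff cultures, against 274, 381 and 335 in neonate soft and 638, 517 and 405 in neonate stiff cultures (limma, adjusted p = 1.5e-06). Tubb2b (limma, adjusted p = 6.9e-05), Dpysl3, a collapsin response mediator (limma, adjusted p = 0.00241), and Stmn3, a relative of Stmn2 (limma, adjusted p = 0.00448), were likewise lower, as were Crmp1, Ina, Tubb2a, Nnat and Elavl3. Of the interneuron factors Pbx3 was called lower (limma, adjusted p = 0.0137). Nefm, a neurofilament, was the 1 gene of mature neurons called, and was lower in aged cultures (limma, adjusted p = 0.019).

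Over the 3 lists together, 10 of 58 genes were called in primary cells and 11 on gels, all lower in aged cells. Without the broad libraries 11 and 14 were called, again all lower. In each of the 2 comparisons, 6 of the other alternatives called 1 or 2 genes higher in aged cells. With aged primary replicate 2 or 3 left out, the count in primary cells was 3 or 5, and with neonate primary replicate 1, 2 or 3 left out it was 6, 5 or 4.

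None of the 58 genes was called by limma between neonate cultures and neonate primary cells, where 0.099% of all genes were called, and voom called 3 of the 58. Of the 15144 genes, 712 had an unadjusted limma p under 0.05, a smaller share than the 0.05 that arises with no difference in any gene. The median of the cytoskeleton and adhesion list was -0.16, and its summed level was 1554 to 1663 scaled TPM in neonate soft, 1762 to 2020 in neonate stiff and 1501 to 2307 in neonate primary libraries, with overlapping ranges. In aged libraries of all 3 kinds the sum was 326 to 697. Tubb2b was at 374.5, 310.5 and 214 scaled TPM in neonate soft and 326, 269 and 320 in neonate stiff cultures, beside 316.5, 223 and 309 in neonate primary cells. Cd24 was at 5.70, 4.70 and 7.11 in neonate soft and 22.5, 15.6 and 5.85 in neonate stiff cultures, against 56.1, 27.9 and 69.5 in neonate primary cells, without overlap, as in Dlx1 and Dlx2; it was not called, and was singled out after its values were seen. Whether the 9 genes differ from the list in culture was not tested. The OPC genes summed to 1351 to 1721 scaled TPM in neonate soft, 981 to 1779 in neonate stiff and 879 to 1089 in neonate primary libraries.

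**Figure D4:**
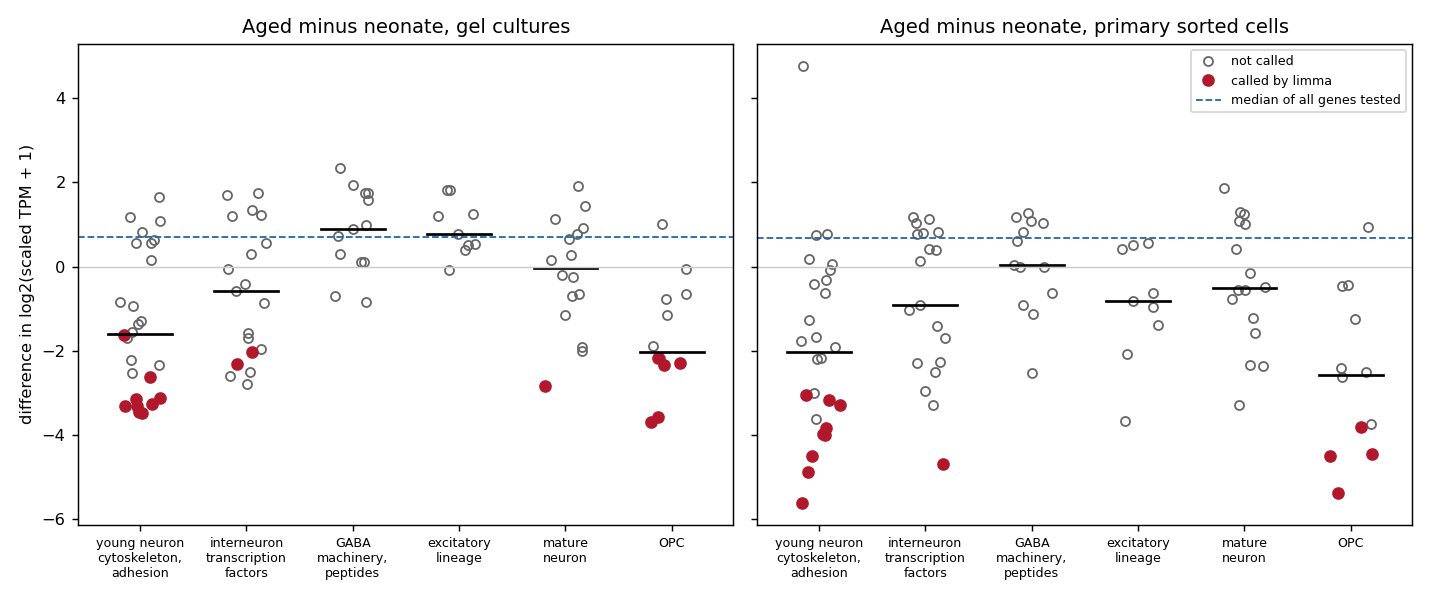
Difference between aged and neonate cells in log2(scaled TPM + 1) for genes of 6 lists that hold none of the 9 genes, on gels (left) and in primary sorted cells (right); filled points were called by limma, black lines are list medians and the dashed line is the median of all genes. The cytoskeleton and adhesion genes have medians of -1.59 and -2.04, and each panel shows 9 of them called, all lower in aged cells.

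The genes whose pattern over the 18 libraries was most like the mean of the 9, by the mean absolute difference of z-scored log2 levels among 13657 genes ranked, were Flrt2 (0.421), Tfb1m (0.422), Skp2 (0.422), Cdh2 (0.424) and Alg2 (0.425). Tfb1m was at 16.3, 0 and 0 scaled TPM in aged primary libraries, against 94.7, 65.7 and 85.6 in neonate primary libraries. Cdh2, the neural cadherin, was at 10.2, 0 and 0 in aged primary libraries, against 36.5, 25.003 and 20.8 in neonate primary libraries. Apart from Tfb1m in aged soft cultures, each of the 5 was highest in the broad library of every aged group. Flrt2 was above 0 in aged cells only there, at 6.39, 4.54 and 5.13. The part of the broad libraries in this likeness was not tested. Alg2 had a higher mean in neonate stiff (73.6) than in neonate primary cells (61.1). Of the 9 genes themselves, which enter the mean, Dcx (0.418) and Dlx1 (0.419) were nearest to it and Dlx5 (0.772) and Gad1 (0.657) farthest.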

How the data were processed

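Transcript assemblies of 18 libraries were deposited. Per the file headers, quantification used StringTie 1.3.2d on annotated transcripts of a UCSC annotation with no strand option, and the values are TPM, FPKM and coverage. Per the submitters' processing notes, Trimmomatic, HISAT2 and Bowtie were used, with no version or order. In all other respects the deposited files were used as the authors made them.

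Gene-level TPM (summed over transcripts) was scaled by median-of-ratios, with 1644 genes that no library listed at 0. The 15144 genes that reached a TPM of 1 in 3 or more libraries were fitted as log2(scaled TPM + 1) with 6 group means in limma 3.58.1 (R 4.3.3), with a variance trend and Benjamini-Hochberg adjustment over all genes at 0.05; a difference on this scale understates the change of low genes. Read pairs were estimated as coverage times length divided by 300. All 9 genes are named, with up to 4 called genes of each list per comparison and the 5 most like genes; the rest are named in counts, and 1 called gene of the lists is counted but not reported here. The genes and lists were chosen with earlier results of these data known. Alternatives changed the pseudocount, filter, scaling, model, block and libraries. Replicate numbers were not taken to pair samples, since 12 of the 18 headers carry another name than the title. Sequences are from RefSeq GRCr8; all other coordinates are on rn6.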

Additional observations from a re-analysis of the deposited data

Results flagged for a closer look

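Tubb3 was the 1 gene of the 9 whose scaled TPM stood apart between gels at both ages, in opposite directions. Every aged soft library (4.999, 3.52 and 3.69 scaled TPM) was above every aged stiff library (0 in all 3), while every neonate soft library (0, 3.30 and 0) was below every neonate stiff library (17.03, 4.35 and 6.19). In TPM before scaling the neonate groups overlapped, with soft replicate 2 at 3.23 and stiff replicate 2 at 1.97. The fitted difference between the 2 effects was 4.78 on the log2(scaled TPM + 1) scale, and it did not pass limma's test over all genes (adjusted p = 0.761). Fewer than 3 read pairs stood behind each of these values.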

How the results depend on the processing

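Depth limits all of these values, since most rest on a few read pairs and a 0 may be a missed transcript. Dlx1, Dlx2, Dcx, Stmn2, Tubb3 and Sox11 kept negative values for age and for culture under every alternative run, whereas Dlx5, Gad1 and Gad2 changed sign under some. The sizes moved: for age on gels Dlx1 ran from -2.78 to -1.60, Dlx2 from -4.37 (pseudocount of 0.1) to -0.74 (voom), Dcx from -3.31 to -1.85, Stmn2 from -2.07 to -0.51, Tubb3 from -1.57 to -0.22 and Sox11 from -1.88 to -0.25 (without aged stiff replicate 2). No gene of the 9 was called between gels under any alternative; the lowest adjusted p was 0.0929, for Dlx1 in aged cells without aged stiff replicate 1. The replicate block called 428 genes for age in primary cells, 1056 on gels, 16 for culture, 13 for aged and 0 for neonate stiffness; same-numbered libraries had correlations of -0.093 to 0.233, and 12 of 18 correlated best with their own number, as a hint from the data. The cause of the changes that follow was not tested.

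For age in primary cells the count of genes (394) was 160 with a pseudocount of 0.1, 246 without ribosomal entries (111 higher, 135 lower), 974 with voom, 1165 with array weights and 629 with only the groups compared, and 164 to 337 with 1 library left out; that of the 58 young neuron and interneuron genes (10) was 5 with a pseudocount of 0.1, 19 with voom, 16 with only the groups compared and 3 to 8 with 1 library left out. For age on gels (841) it was 2636 with voom and 516 to 1704 with 1 library left out, and of the 58 genes (11) 7 without scaling, 17 (2 of them higher) without the broad libraries when genes were filtered on all 18, an alternative added after the data were seen, and 10 to 16 with 1 library left out. For culture (15) it was 47 without scaling, all lower, 168 with voom, 200 with array weights, 24 without the broad libraries, 45 with only the groups compared and 3 to 18 with 1 library left out, and of the 58 genes (0) 2 without scaling, 3 with voom, 2 with array weights and 1 without the broad libraries. For aged stiffness (12) it was 6 with a TPM filter of 5, 1 without scaling, 20 with quantile normalization, 0 with array weights or only the groups compared, 117 without the broad libraries, 695 when genes were also filtered on all 18, and 1 to 69 with 1 library left out; of the 58 genes it was 1 in that last filter and 0 to 1 with 1 library left out. For neonate stiffness (0) it was 6 with voom, 2 with array weights, 1 with only the groups compared and 0 to 1 with 1 library left out.

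Between soft and stiff gels, aged values changed sign with quantile normalization for Stmn2 (-0.52), Gad1 (-0.96) and Gad2 (-0.69), and with voom for Stmn2 (-0.082), Gad1 (-0.15) and Gad2 (-0.17). With 1 library left out, the aged value ran from 0.89 (without aged stiff replicate 3) to 2.66 for Dlx1, from 1.71 to 3.65 (without aged soft replicate 2) for Dlx2, from -0.32 to 2.08 for Stmn2, from -0.57 to 1.28 for Gad1, from -0.48 to 1.80 for Gad2 and from -2.08 to 0.16 for Sox11. In neonate cells Gad1 ran from -0.060 to 0.94, and was -0.12 with quantile normalization.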
